A study of Mus musculus with 24 samples.

Results

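The genes described here encode 10 acute phase proteins of the mouse and were chosen by symbol, as Saa1, Saa2, Saa3, Saa4, Orm1, Orm2, Orm3, Lcn2, Hp and Hpx, from the 56205 gene rows of a count table. Their transcripts were counted in polyadenylated RNA of the liver of 24 C57BL/6J mice, 12 given a methionine-choline deficient (MCD) diet and 12 its control diet, both for 20 weeks. Diets of this kind serve in mice as models of fatty liver with inflammation and fibrosis. The study's methods also call the diet MCD and list it as high in fat, but its results section gives the model as a choline-deficient, high-fat diet with defined amino acids, so whether methionine was absent was not settled here. Both diets included as many males as females, but the sex, age, litter and batch of a given library are missing from its labels, so each diet was treated as 1 group in which 1 library stands for 1 animal. All 10 genes passed the filter on low counts.

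Acute phase proteins are plasma proteins whose output from hepatocytes changes during inflammation and injury. Cytokines of the interleukin-6 family acting through STAT3, and interleukin-1 and tumour necrosis factor acting through NF-kappaB, drive their genes together with C/EBP factors and glucocorticoid. Serum amyloids A are apolipoproteins carried on HDL, orosomucoids are acid glycoproteins that bind drugs and lipids, lipocalin 2 binds the siderophores that bacteria use to take up iron, and haptoglobin and hemopexin scavenge free hemoglobin and heme.

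In the reference annotation (GENCODE mouse release 21, GRCm38) the 4 serum amyloid genes stand side by side at chr7:46711998-46754313, and the 3 orosomucoid genes at chr4:63344560-63365878. Lcn2 lies at chr2:32384633-32388252, Hp at chr8:109575128-109579172 and Hpx at chr7:105591613-105600137. Promoters of the serum amyloid and orosomucoid families are shown because the results turn on how close copies of a gene differ, and that of Lcn2 because it had the largest fold change. RefSeq promoter sequences (GRCm38.p6) matched 8 of the 10 genes, with Orm1 and Hp missing. Each window was the 250 bases before the RefSeq start site, and the longest stretch of it outside annotated exons is printed on the strand of the gene, 5′ to 3′, for Saa1 (chr7:46742981-46743230, minus strand), Saa2 (chr7:46751583-46751789, plus strand), Saa3 (chr7:46715701-46715926, minus strand), Saa4 (chr7:46732604-46732853, minus strand), Orm2 (chr4:63362199-63362448, plus strand), Orm3 (chr4:63355908-63356157, plus strand) and Lcn2 (chr2:32387798-32387850, minus strand). Capitals mark matches to the C/EBP letters TTNNGNAA, the NF-kappaB letters (GGG, any 5 bases, then CC) and the glucocorticoid receptor letters ACANNNTGT, searched on both strands.
Saa1: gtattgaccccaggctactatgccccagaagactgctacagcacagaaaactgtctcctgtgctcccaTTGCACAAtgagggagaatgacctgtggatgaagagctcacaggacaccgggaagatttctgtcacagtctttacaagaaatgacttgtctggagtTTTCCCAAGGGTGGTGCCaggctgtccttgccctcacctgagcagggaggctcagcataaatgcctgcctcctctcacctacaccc
Saa2: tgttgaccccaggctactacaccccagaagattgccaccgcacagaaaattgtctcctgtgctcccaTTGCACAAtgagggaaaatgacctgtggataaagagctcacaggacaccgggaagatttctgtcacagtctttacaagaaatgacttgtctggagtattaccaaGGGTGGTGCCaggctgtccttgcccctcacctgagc
Saa3: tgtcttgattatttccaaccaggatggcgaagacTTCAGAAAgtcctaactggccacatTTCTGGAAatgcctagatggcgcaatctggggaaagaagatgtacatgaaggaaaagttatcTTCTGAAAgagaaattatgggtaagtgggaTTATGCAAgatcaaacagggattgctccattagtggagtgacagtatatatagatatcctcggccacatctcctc
Saa4: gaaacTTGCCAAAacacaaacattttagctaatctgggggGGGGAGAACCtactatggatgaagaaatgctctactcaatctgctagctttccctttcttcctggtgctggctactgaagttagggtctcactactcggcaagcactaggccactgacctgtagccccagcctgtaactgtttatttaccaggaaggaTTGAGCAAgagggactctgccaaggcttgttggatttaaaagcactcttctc
Orm2: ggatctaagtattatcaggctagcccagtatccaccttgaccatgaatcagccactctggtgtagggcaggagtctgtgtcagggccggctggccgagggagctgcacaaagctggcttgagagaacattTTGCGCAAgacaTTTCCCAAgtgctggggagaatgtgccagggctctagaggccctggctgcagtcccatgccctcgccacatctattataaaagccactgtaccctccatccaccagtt
Orm3: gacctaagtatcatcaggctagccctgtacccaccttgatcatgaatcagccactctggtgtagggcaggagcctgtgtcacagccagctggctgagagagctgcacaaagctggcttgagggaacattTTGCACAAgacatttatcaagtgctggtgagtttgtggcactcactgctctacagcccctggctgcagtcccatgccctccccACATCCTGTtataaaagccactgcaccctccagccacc
Lcn2: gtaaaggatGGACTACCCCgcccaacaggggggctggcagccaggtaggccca

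The C/EBP letters occurred in 8 of the 8 windows, against 36.8% of 32851 promoters in the same table. In Saa1 the match TTTCCCAA, which starts 86 bases before the start site, directly abuts the NF-kappaB match GGGTGGTGCC. Saa2 holds the NF-kappaB match and the distal C/EBP match TTGCACAA but has no second C/EBP match. The NF-kappaB letters were in 4 of the 8 windows (Saa1, Saa2, Saa4 and Lcn2), against 45.8% of all promoters. The glucocorticoid receptor letters were in 2 (Orm3 and Lcn2), against 5.84%, and the STAT letters TTCNNNGAA were in 0, against 7.02%. In Lcn2, 197 of the 250 bases lie in annotated exons and are not printed. Its C/EBP and glucocorticoid receptor matches, counted here, fall in that exonic part. No match overlapped another. Aligned end to end, the windows of Saa1 and Saa2 were 94.8% identical and those of Orm2 and Orm3 85.9%, while Saa1 shared 52.2% with Saa3 and 49.5% with Saa4. These are matches of letters only, and binding was not measured.

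MCD livers held more transcript of 7 of the 10 genes, and 0 passed the threshold in the other direction. Lcn2 rose 14.1-fold, Orm2 13.0-fold and Saa3 9.43-fold, while Orm3 rose 3.30-fold, Saa1 2.93-fold, Saa2 2.81-fold and Hpx 1.53-fold. Saa4, Orm1 and Hp did not pass. The threshold asked for an FDR of 0.01 or less in edgeR's quasi-likelihood test, Benjamini-Hochberg adjusted over all 14109 genes tested, and for an absolute log2 fold change above 0.5. It was passed by 38.3% of all genes tested, with 19.2% higher in MCD and 19.1% lower. The diets did not overlap for 3 of the 10 genes, Saa3, Orm2 and Lcn2, each with all MCD livers above. Among all genes tested 14.4% did not overlap, 9.5% with MCD above and 4.88% with MCD below. On total counts alone, a scale compared after seeing the data, all MCD livers lay above all control livers for 5 of the 10, with Saa1 and Hpx added, against 17.5% of all genes tested. The median log2 fold change of the 10 genes was 1.52, against -0.10 for all genes tested.

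Levels are given as CPM, read counts relative to library size, with library sizes scaled by TMM, a factor computed across genes to make libraries comparable. Total counts ran from 16793207 to 24915175 in control and from 16388650 to 24577848 in MCD libraries. TMM factors did not overlap between the diets, at 0.642 to 0.973 in control and 1.07 to 1.26 in MCD, and scaling by total counts alone moved the median log2 fold change of all genes from -0.10 to 0.27. On that scale 4539 genes were higher and 848 lower, in place of 2712 and 2688, and upper-quartile scaling gave 3261 and 1710. None of the 10 genes changed direction under any of these scalings, and 9 of the 10 passed on total counts alone, Orm1 and Hp among them. Whole liver was measured, so fewer cells of a type and less RNA per cell cannot be told apart.

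Of the 24 libraries, 2 stood apart. Control replicate 12 had the highest level among the control livers for 9 of the 10 genes and the second highest for Saa4. On total counts alone the highest control liver was replicate 11 for Orm2, replicate 2 for Hpx, replicate 1 for Saa4 and replicate 12 for the others. MCD replicate 3 was highest among the MCD livers for 9 of the 10 and second highest for Saa3. Control replicate 12 also had the lowest TMM factor of all, 0.642 against 0.792 for the next, which raises its scaled values. Its Alb level was the highest of the control group, at 124880 CPM, while 7 other hepatocyte markers summed to 20268 CPM, rank 7 of 12, and Cps1 and Pck1 were the lowest of the group there. With both libraries left out, an alternative chosen after seeing the data, 8 of the 10 genes passed, since Hp was then called as well.

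**Figure D1:**
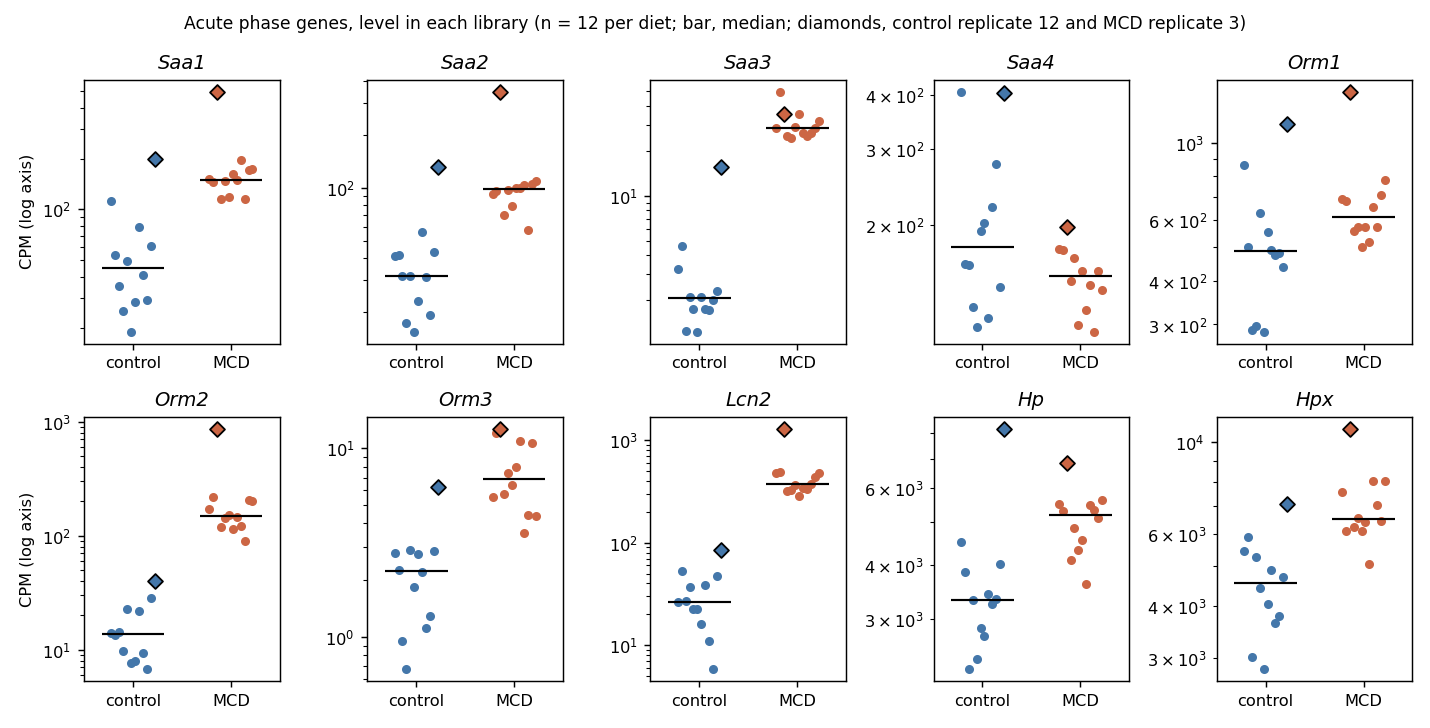
Level of each of the 10 genes in each library, as CPM on a log axis, for 12 control (blue) and 12 MCD (orange) livers; bars mark medians and outlined diamonds mark control replicate 12 and MCD replicate 3. On this scale the diets do not overlap for Saa3, Orm2 and Lcn2, and the diamonds top most panels.

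The serum amyloid A genes split into members that rose and a member that did not. Saa1 and Saa2 encode the inducible circulating forms. Saa1 stood at 18.9, 45.2 and 198 CPM (lowest, median and highest) in control livers and at 115, 150 and 497 CPM in MCD livers. Control replicate 12 was the only control liver above the lowest MCD liver. The mean went from 60.9 ± 50.6 to 178 ± 103 CPM (SD, n = 12 each), a log2 fold change of 1.55 with an SE of 0.33 (edgeR FDR 0.000195). Saa2 stood at 15.4, 31.7 and 132 CPM in control and at 58.0, 98.0 and 349 CPM in MCD, again with 1 control liver above the lowest MCD liver. Its mean went from 40.4 ± 31.3 to 113 ± 75.8 CPM (SD, n = 12 each), a log2 fold change of 1.49 with an SE of 0.31 (edgeR FDR 0.000191). For both genes the highest MCD liver was replicate 3. Without it and control replicate 12 the log2 fold changes were 1.68 for Saa1 and 1.56 for Saa2.

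Saa3 is the serum amyloid made largely outside hepatocytes, in macrophages and adipose tissue among others. It was the lowest of the serum amyloid genes in control livers, at 1.23, 2.06 and 15.7 CPM, and reached 24.4, 28.5 and 49.8 CPM in MCD livers. All 12 MCD livers lay above all 12 control livers. The log2 fold change was 3.24 with an SE of 0.33 (edgeR FDR 4.63e-09). Without control replicate 12 it was 3.84, more than 1.5 times as large on the linear scale. The counts behind these levels were 20 to 207 in control and 538 to 1369 in MCD libraries. The summed level of 8 macrophage markers also separated the diets, at 86.6 to 236 CPM in control and 807 to 1647 CPM in MCD, with 8 of the 8 markers called higher. Gpnmb was the largest part of that sum in MCD livers, at 416 to 947 CPM, and Csf1r in control livers, at 37.9 to 109 CPM. MCD replicate 2 was highest in its diet for both Saa3 and the sum, MCD replicate 3 ranked 2 for Saa3 and 11 for the sum, and control replicate 12 ranked 1 and 8. Their part in the Saa3 result was not tested.

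Saa4 encodes the constitutive serum amyloid, which is bound to HDL without an inflammatory stimulus. Its levels were 116, 178 and 408 CPM in control and 114, 153 and 198 CPM in MCD, so the MCD range lay almost wholly inside the control range. The log2 fold change was -0.48 (95% CI -0.86 to -0.097) with an edgeR FDR of 0.0268, which missed the limits on FDR and on fold. On total counts alone the value was -0.06. Control livers varied more than MCD livers (SD of log2 CPM 0.62 and 0.24), as did 90.8% of all genes tested.

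The ratio of Saa2 to Saa1 counts within a library does not depend on scaling. It had a median of 0.714 in control and 0.623 in MCD livers. The mean log2 ratio differed by -0.17 between the diets, which did not pass (two-sided permutation test with 100000 resamples, adjusted p = 0.151 over 4 ratios). Control replicate 1 had a ratio of 0.367, well below the next lowest control liver at 0.638. Without that library the difference was -0.25 and passed (permutation test, adjusted p = 0.000427). Of the 50-base stretches of the longest coding transcript, 14.8% in Saa1 and 9.12% in Saa2 also occur in another gene, each other's included, so both values are uncertain where the counting split or dropped shared reads.

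The orosomucoid genes, which encode alpha-1-acid glycoproteins, changed unequally. Orm2 stood at 6.77, 13.7 and 40.4 CPM in control livers and at 90.7, 149 and 863 CPM in MCD livers, and the diets did not overlap. The log2 fold change was 3.70 (95% CI 2.92 to 4.48; edgeR FDR 5.11e-09). MCD replicate 3 held 863 CPM where the next MCD liver held 221, and without it and control replicate 12 the log2 fold change was 3.47. Orm1 was the most abundant of the family and overlapped between diets, at 286, 487 and 1130 CPM in control and 499, 612 and 1401 CPM in MCD. Its log2 fold change of 0.35 (95% CI -0.07 to 0.77) did not pass (edgeR FDR 0.137), and on total counts alone it was 0.76 and passed (edgeR FDR 0.000343). The mouse carries these as separate copies. Orm3 was scarce, at 0.679, 2.24 and 6.21 CPM in control and 3.55, 6.87 and 12.6 CPM in MCD, with 1 control liver above the lowest MCD liver. Its log2 fold change was 1.72 with an SE of 0.28 (edgeR FDR 7.49e-06), from counts of 12 to 82 in control and 76 to 330 in MCD.

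The Orm2 to Orm1 ratio rose in every MCD library above every control library. It was 0.0140, 0.0298 and 0.0644 (lowest, median and highest) in control livers and 0.159, 0.255 and 0.616 in MCD livers, with the median MCD ratio lying above the highest control ratio. The mean log2 ratio was higher in MCD by 3.19 (permutation test, 2e-05 being the lowest p that 100000 resamples allow, adjusted p = 4e-05). The Orm3 to Orm1 ratio was higher in MCD by 1.36 on the log2 scale (permutation test, adjusted p = 4e-05), and 10 of 12 MCD livers lay above the highest control liver. Both differences were called without each of the 24 libraries in turn. Orm1 and Orm2 shared 20.4% of the 50-base stretches of Orm1 and 6.95% of its 100-base stretches, while 3.59% of the 50-base stretches of Orm3 occurred in another gene, so how the counting treated shared reads could move the ratios.

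**Figure D2:**
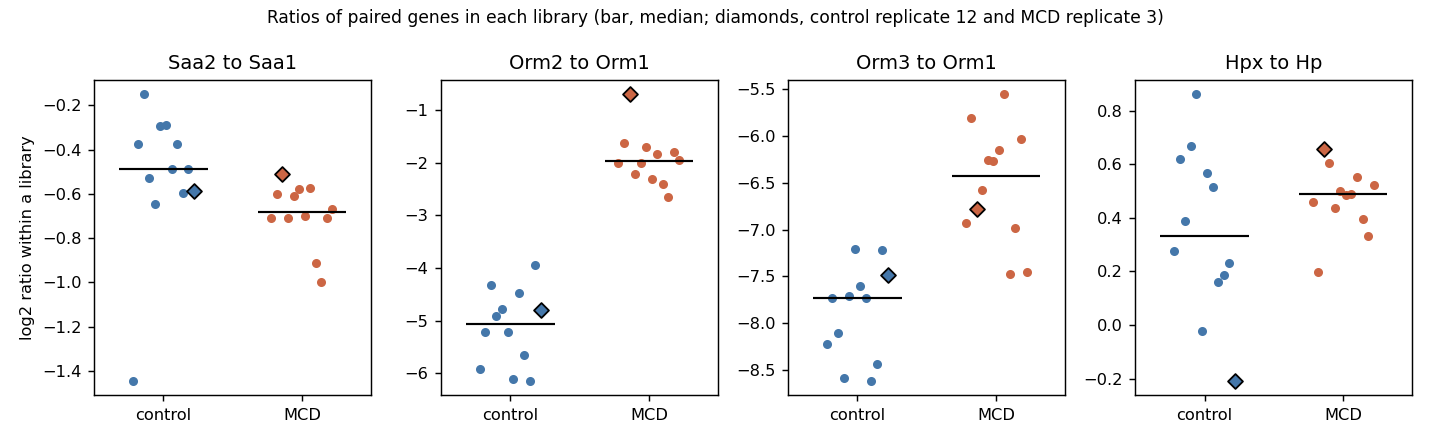
Log2 ratio of the counts of paired genes within each library for 12 control (blue) and 12 MCD (orange) livers; bars mark medians and outlined diamonds mark control replicate 12 and MCD replicate 3. Orm2 to Orm1 separates the diets fully, while Saa2 to Saa1 and Hpx to Hp overlap.

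Lcn2 showed the largest fitted fold change of the 10 genes. Control livers held 5.86, 26.6 and 84.3 CPM and MCD livers 285, 371 and 1289 CPM, with no overlap between the diets. The mean went from 32.7 ± 21.5 to 461 ± 270 CPM (SD, n = 12 each), a log2 fold change of 3.82 (95% CI 3.10 to 4.53; edgeR FDR 6.49e-10). MCD replicate 3 stood well above the next MCD liver, at 495 CPM. The log2 fold change was 3.60 without it, 4.08 without control replicate 12 and 3.82 without both. No 50-base stretch of Lcn2, Hp or Hpx occurred in another gene.

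Lipocalin 2 is also stored in neutrophil granules, so neutrophil markers were set beside it. Of 12 neutrophil markers 3 passed the low-count filter, S100a8, S100a9 and Csf3r, and all 3 were higher in MCD. The summed level of the 12 was 2.89 to 9.16 CPM in control and 14.0 to 48.5 CPM in MCD livers, with control replicate 12 and MCD replicate 3 the highest of their diets and the second highest MCD liver at 23.7 CPM. Ly6g, the defining surface marker of mouse neutrophils, had 0 counts in all 12 control libraries and at most 3 in an MCD library. Summed cholangiocyte markers were 30.1 to 146 CPM in control and 453 to 906 CPM in MCD, with 6 of 6 called higher. Spp1, which macrophages also make, was nearly all of that sum, at 24.8 to 138 CPM in control and 412 to 822 CPM in MCD. Of 8 mesenchymal markers 7 were higher and 1 lower, with sums of 163 to 530 CPM in control and 712 to 1229 CPM in MCD. The part of these cells in the Lcn2 and Saa3 results was not tested. Adipocyte markers summed to 0.0558 to 20.7 CPM in control livers, with control replicate 12 at 16.9 CPM (rank 3). Of these sums, Cfd was 10.6 CPM in control replicate 12 and Cidea 18.1 CPM in control replicate 11. Adipoq, Plin1 and Retn had at most 3 counts in any control library, and Lep had 0. The part of the summed markers in the high Saa3 of control replicate 12 was not tested. In MCD they were at most 1.31 CPM in 11 livers and 125 CPM in replicate 4, which was not among the high libraries for any of the 10 genes.

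The heme and hemoglobin scavengers were the most abundant of the set, and 1 of the pair passed the threshold. Hp, which encodes haptoglobin, stood at 2309, 3326 and 8177 CPM in control and at 3619, 5212 and 6829 CPM in MCD, and control replicate 12 held the highest of these values. On total counts alone that library stood at 5249 CPM and the highest MCD liver at 7546 CPM, with 8 of 12 MCD livers above every control liver. Its log2 fold change was 0.46 (95% CI 0.13 to 0.78; edgeR FDR 0.0148) and missed the threshold. The call was gained without control replicate 12, at 0.66 (edgeR FDR 1.08e-05), and at 0.51 to 0.54 without control replicate 1 or MCD replicate 4, 6, 7 or 8. It was also gained on total counts alone, at 0.86. Hpx, which encodes hemopexin, stood at 2821, 4569 and 7083 CPM in control and at 5073, 6500 and 10762 CPM in MCD. Its log2 fold change of 0.61 (95% CI 0.33 to 0.90) passed (edgeR FDR 0.000372), with 4 MCD livers above the highest control liver and 12 of 12 on total counts alone. The Hpx to Hp ratio had medians of 1.26 in control and 1.40 in MCD, a difference of 0.12 on the log2 scale that did not pass (permutation test, adjusted p = 0.249). Control replicate 12 had the lowest ratio, 0.866.

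**Figure D3:**
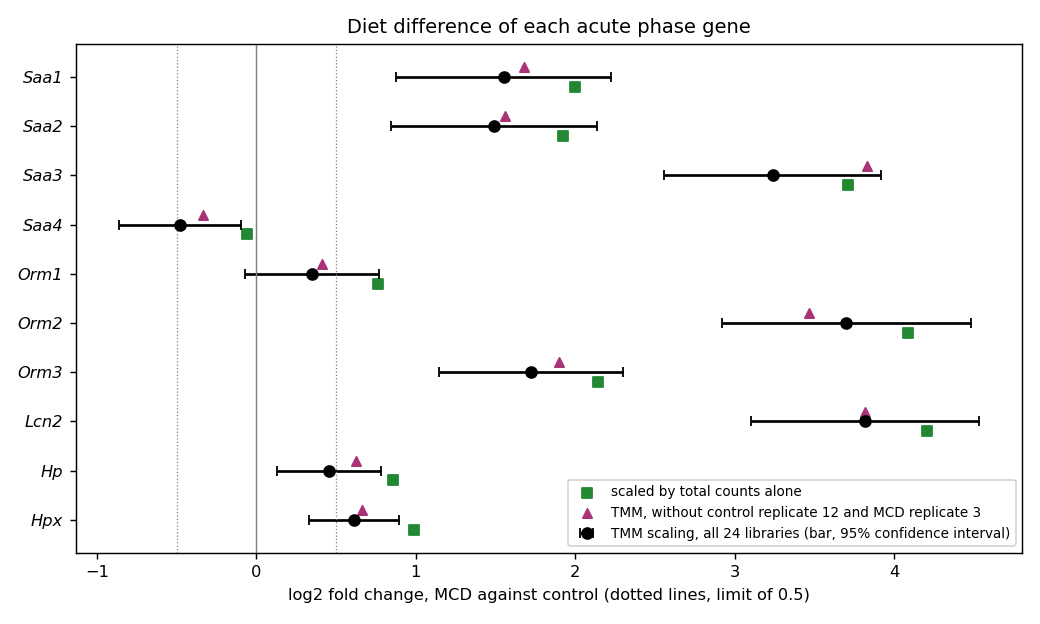
Log2 fold change of each gene, MCD against control, with TMM scaling over 24 libraries (black points, 95% confidence interval), with total counts alone (green squares) and with TMM scaling without control replicate 12 and MCD replicate 3 (purple triangles); dotted lines mark the limit of 0.5 either way. Lcn2, Orm2 and Saa3 lie farthest right under each of the 3 fits, and Saa4 is the only gene left of 0.

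Per length of the longest coding transcript, Hpx, Hp and Orm1 were the 3 most abundant of the 10 in both diets. Median levels in control livers were 3048 CPM per kb for Hpx, 2473 for Hp and 629 for Orm1. Saa4 followed at 85.2, Saa1 at 74.3, Saa2 at 48.6, Lcn2 at 29.0 and Orm2 at 17.7 CPM per kb, and Orm3 and Saa3 were lowest. Neighbours from Saa4 to Orm2 overlapped in their ranges across livers. In MCD livers Lcn2 ranked 4 at 405 CPM per kb and Saa4 ranked 8 at 72.9. With the shortest coding transcript in place of the longest, only Orm3 and Saa3 changed places in control livers, and the order in MCD livers stayed as it was. The 10 genes together took 0.570% to 1.11% of library counts in control and 1.27% to 2.46% in MCD livers. Without Hp and Hpx the shares were 0.0496% to 0.129% and 0.150% to 0.513%.

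Within a diet, levels of several of the genes moved together from liver to liver. Correlations of log2 CPM are given over 12 livers per diet as a description, and the points share their library scaling. Saa1 and Saa2 were closest, with Pearson's r of 0.945 in control (Spearman's rho 0.93) and 0.977 in MCD (rho 0.916), and 0.903 and 0.877 without control replicate 12 and MCD replicate 3. Orm2 and Lcn2 had r of 0.752 in control (rho 0.699) and 0.953 in MCD (rho 0.825), and 0.652 and 0.776 without those libraries. Hp and Hpx had r of 0.77 in control (rho 0.769) and 0.897 in MCD (rho 0.874), and 0.671 and 0.846 without them. The relation of Saa1 to Lcn2 in MCD livers rested on replicate 3, with r of 0.833 with it and 0.149 without it. Over all 45 pairs the median r fell from 0.659 to 0.424 in control and from 0.626 to 0.367 in MCD livers when the outlying library of that diet was left out.

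**Figure D4:**
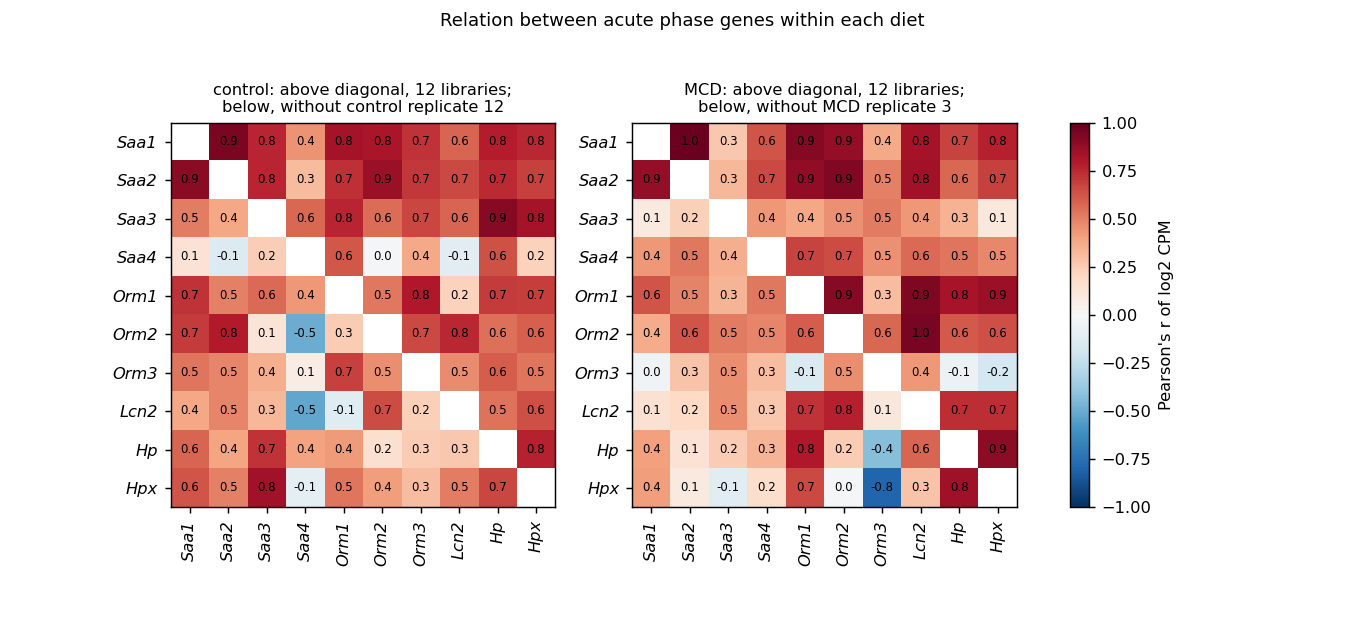
Pearson's r of log2 CPM between the 10 genes within control (left) and MCD (right) livers; cells above the diagonal use 12 libraries and cells below it 11, without control replicate 12 or MCD replicate 3. Values below the diagonal are mostly lower, and Saa1 with Saa2 keeps a high r in all 4 settings.

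The genes most alike were taken by the lower of the within-diet correlations over 12 livers each. Orm1 was most like Cpb2, at 0.92, Serpina10, at 0.887, and Ambp, at 0.872, all 3 of them made in hepatocytes and secreted. Saa3 was most like Dad1, at 0.891, a subunit of the oligosaccharyltransferase. Hp was most like Rexo2, at 0.84, and Lrg1, at 0.795, and Saa4 most like Acsm1, at 0.766. Lcn2 was closest to Orm2, at 0.752, followed by Mvp, at 0.735, and Syt12, at 0.71.

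Other genes of the acute phase were counted against the same background of 19.2% of all genes tested higher, 19.1% lower and a median log2 fold change of -0.10. Of 20 other positive acute phase genes, all tested, 3 were higher, 5 lower and 12 did not pass, with a median of -0.11, so these counts were near the background. The metallothioneins, which bind zinc and copper, were 2 of the 3, with Mt2 at 1.79 (edgeR FDR 9.17e-05) and Mt1 at 1.44 (edgeR FDR 7.66e-05). The third was Il1rn, the interleukin-1 receptor antagonist, at 1.72 (edgeR FDR 2.27e-09), with 12 of 12 MCD livers above every control liver. The fibrinogen chains Fga, Fgb and Fgg were lower, at -0.61, -0.71 and -0.62, as were Serpina3m, at -0.66, and Itih4, at -0.75 (edgeR FDR 0.000139 for Itih4). On total counts alone 6 of the list were higher and 0 lower, and without control replicate 1 the count lower was 3. Among 10 negative acute phase genes, 3 were lower and 0 higher, with a median of -0.26, beside 19.1% lower, 19.2% higher and -0.10 for all genes. They were Serpina6, the corticosteroid-binding globulin, at -1.12 (edgeR FDR 6.73e-05), Ttr, the thyroxine carrier transthyretin, at -0.85 (edgeR FDR 1.38e-05, 12 of 12 MCD livers below every control liver), and Alb, albumin, at -0.62 (edgeR FDR 3.8e-05). On total counts alone 1 was lower and 1 higher. Many products of these lists come from hepatocytes, and 3 of 8 hepatocyte markers were lower too, with 0 higher and a median of -0.49, namely Apob at -0.79, Ass1 at -0.58 and Alb as given above. The sum of the 8 ran from 75219 to 145150 CPM in control and from 51478 to 80217 CPM in MCD livers and was mostly Alb. Without Alb the other 7 summed to 16657 to 26611 CPM in control and 12770 to 20989 CPM in MCD, which overlapped, and Cyp2e1 (-0.19), Tat (0.10) and Pck1 (0.09) did not pass. The markers' part in the lower calls was not tested.

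Of 29 signalling genes 26 were tested, with 6 higher, 5 lower and 15 not past the threshold, and a median of -0.08, near the 19.2%, 19.1% and -0.10 of all genes. Among the ligands, Il6 had 0 to 2 counts in every library and was not tested. Osm, the ligand of Osmr, was not tested either, with 0 counts in 11 of 12 control libraries and 3 in the other, and 2 to 25 counts in MCD libraries, 11 of 12 of them above the highest control library in CPM. Tnf, tumour necrosis factor, was higher by 2.79 on the log2 scale (edgeR FDR 5.03e-10) from low counts of 1 to 11 in control and 22 to 77 in MCD. Il1b stood at 0.42 (edgeR FDR 0.106). Among receptors, Osmr of oncostatin M rose by 1.23 (edgeR FDR 6.87e-09) and Il1r1 by 0.58, while Lifr of leukemia inhibitory factor fell by 0.92 (edgeR FDR 2.49e-05) and Il1rap by 0.89. Il6ra, at -0.17 (edgeR FDR 0.366), did not pass, and its sign turned on total counts alone, where it was 0.16. Of the factors downstream, Cebpd rose 2.82-fold (edgeR FDR 1.06e-06), while Cebpa and the glucocorticoid receptor gene Nr3c1 fell by 0.83 and 0.73. Cebpb was 0.55 (edgeR FDR 0.0165) and Stat3 -0.24 (edgeR FDR 0.0137), neither past the threshold, and Stat3 was 0.13 on total counts alone. Cebpb was called under 8 of 12 alternatives, at 0.94 on total counts alone, and without any 1 of 6 libraries (control replicates 7 and 12 and MCD replicates 2, 3, 6 and 8), reaching 0.76 without control replicate 12 (edgeR FDR 0.000137). The feedback inhibitor Socs3 was 0.46 (edgeR FDR 0.088) and was called without control replicate 4, at 0.73 (edgeR FDR 0.000573), with limma-voom, at 0.68, and on total counts alone, at 0.83. Il1b too was called on total counts alone, at 0.79. Of the NF-kappaB regulators, Nfkbia, which encodes the inhibitor IkappaB-alpha, rose by 0.67 and Nfkbiz, whose nuclear product IkappaB-zeta co-activates some NF-kappaB targets, by 0.73. On total counts alone 11 signalling genes were higher and 2 lower.

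Receptors and handling genes for these proteins gave 5 higher, 2 lower and 6 not past the threshold among 13 tested of 15, with a median of 0.46, beside 19.2% higher, 19.1% lower and -0.10 for all genes. Cd163, the macrophage receptor for haptoglobin bound to hemoglobin, went from 8.20, 18.3 and 34.6 CPM in control to 0, 0.204 and 1.01 CPM in MCD, with no overlap. Its log2 fold change was -6.14 (edgeR FDR 1.33e-12), although 3 counts correspond to 0.109 to 0.158 CPM in the MCD libraries, so many of those values lie at what the depth can resolve. Of 6 Kupffer cell markers 4 were also lower, and their part in the Cd163 result was not tested. Hmox1, which degrades heme, rose by 1.39 (edgeR FDR 2.73e-09) with 12 of 12 MCD livers above every control liver. Slc22a17, a lipocalin 2 receptor, rose by 1.06 (edgeR FDR 3.36e-05), and Tlr2, a receptor for serum amyloid A, by 1.86 (edgeR FDR 1.06e-09). Tlr4 rose by 0.89 and Ager by 1.05. The 8 macrophage markers, all called higher, had a median of 2.42, and their part in the higher receptor calls was not tested. Fpr1, a formyl peptide receptor, stood at -0.59 (edgeR FDR 0.00916), a call that was lost without any 1 of 18 of the 24 libraries and under most other alternatives.

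**Figure D5:**
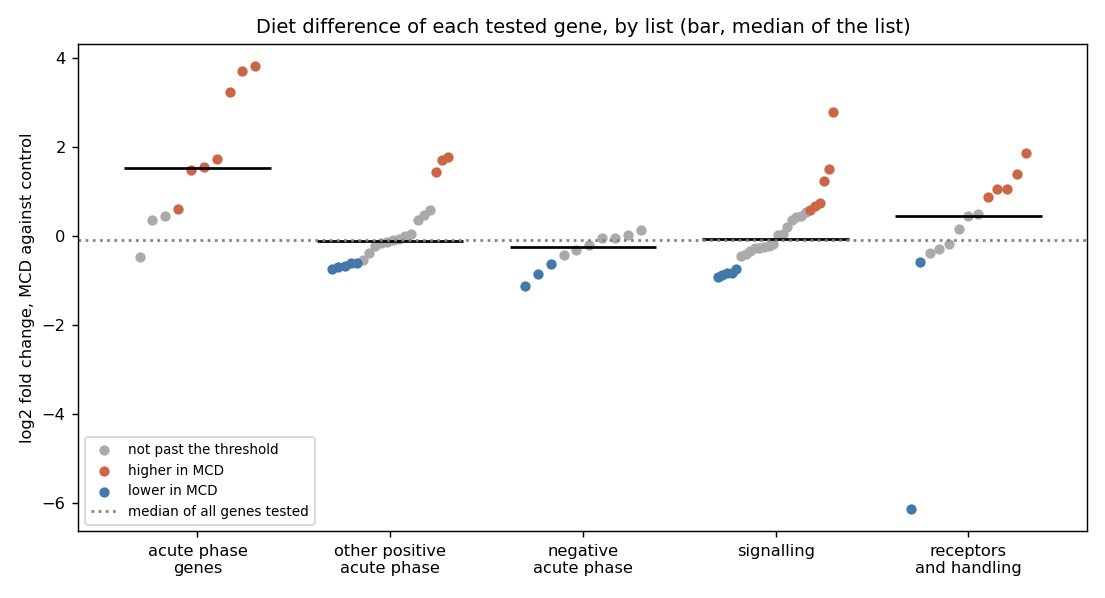
Log2 fold change, MCD against control, of each tested gene in the 10 acute phase genes and in 4 pathway lists; orange and blue mark genes past the threshold, grey the others, bars the median of each list and the dotted line the median of all genes tested. The 10 acute phase genes have the highest median, 1.52, and Cd163 is the lowest point, at -6.14.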

How the data were processed

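Poly(A) RNA of 12 control and 12 MCD livers was measured. The authors deposited raw read counts per Ensembl gene with no normalization. The submitters' processing notes list bcl2fastq, STAR 2.7.3a and mm10, with no counting program, annotation or use of strand for these mouse counts. The study's methods describe a stranded TruSeq kit and, for human reads, an exon quantification pipeline, STAR, an Ensembl annotation and PISCES. Positions and symbols are those of GENCODE mouse release 21. Rows without a symbol (4460) held 0.0808% of counts and were kept.

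Libraries were scaled by TMM, genes filtered with filterByExpr by diet, and diets compared with edgeR 4.0.16 in R 4.3.3 without covariates. SEs were derived from each log2 fold change and its F statistic. CPM floors are 3 counts and cover counting error only. Ratios of counts were compared by permutation tests (scipy 1.17.1). Genes named are the 10 members, the 4 called genes of largest change in each list (mean CPM of at least 1), preset signalling genes and, chosen after their values were seen, all called genes where a list had few, except 1 that is counted but not reported here. The 3 most alike genes needed a mean CPM of at least 5. The members and lists were chosen with earlier results of these data known. No 2 libraries were identical, and the most alike pair differed by more than sampling noise (dispersion index 11.8, where 1 is noise alone).

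Alternatives were other scalings, other filters, DESeq2 1.42.0, limma-voom (limma 3.58.1), a block by replicate number, a covariate from sex-linked expression, other thresholds and leaving out each library. The fits were also run on simulated counts with as many genes raised as lowered. That run cannot judge the choice of scaling, and its outcome is not reported here. p-values set a diet difference against the variation between libraries, in which sex, litter and batch cannot be separated.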

Additional observations from a re-analysis of the deposited data

How the results depend on the processing

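Of the 10 acute phase genes, 6 to 9 were higher under the 12 alternatives and 7 or 8 without each library in turn, and 0 were lower except for Saa4 (log2 fold change -0.48), the 1 gene called lower once the limit was an FDR of 0.05 alone. Hpx (0.61) was not called at a log2 limit of 1. Orm1 was called on total counts alone, at 0.76. Hp was called with DESeq2 (0.51), limma-voom (0.52), total counts alone (0.86), upper-quartile factors (0.61), relative log expression factors (0.51), at least 10 counts in every sample (0.54), an FDR of 0.05 (0.46) and without control replicate 12 and MCD replicate 3 together (0.63), and ran from 0.41 to 0.66 with each library left out. Without each library in turn the difference between diets (MCD minus control) in the log2 Saa2 to Saa1 ratio ran from -0.25 to -0.13.

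Replicate numbers are shared between the diets, but 8 of 12 same-numbered pairs correlated above 0.1 (-0.28 to 0.35) and 2 of 12 libraries were closest to their own number. The median was 0.233, against -0.06 for other pairs, but since not every pair exceeded 0.1 the numbers were not taken as pairing animals. With a replicate block Hp was 0.52 and called, and 1 receptor gene was lower in place of 2, since Fpr1 was no longer called. No other count of calls in a list moved by over 1.5 times under the block.

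Over all genes, total counts alone gave 4539 higher and 848 lower, upper-quartile factors 1710 lower, at least 10 counts 1801 higher, an FDR of 0.05 5221 lower and a log2 limit of 1 686 lower. Of the other positive genes 5 were higher with upper-quartile factors or an FDR of 0.05 and 6 on total counts; 3, 0 and 0 were lower with upper-quartile factors, total counts and a log2 limit of 1, and 3 to 6 without each library. Of the negative genes 1 was higher on total counts, and 1 lower there and at a log2 limit of 1. Of the signalling genes 11 were higher on total counts and 3 at a log2 limit of 1, while 2, 11 and 0 were lower on total counts, at an FDR of 0.05 and at a log2 limit of 1. Of the receptors 8 were higher on total counts and 3 at 10 counts or more; 1 was lower under most alternatives, 0 at 10 counts or more and 4 at an FDR of 0.05, and 1 or 2 without each library. On total counts Il6ra (0.16) and Stat3 (0.13) changed sign. The cause of these moves was not tested beyond what each setting changes. Of the named list genes, 789 of 816 values without 1 library and 350 of 404 under the other alternatives kept their direction and call. Depth limits Il6, Tnf, Orm3 and Cd163, which had low counts in at least 1 diet.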
